A study of Mus musculus with 6 samples.

Results

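The genes examined here were 10 components of the core circadian clock and its output in mouse gastrocnemius muscle, a calf muscle made mostly of fast fibres. They were taken by gene symbol, and the choice was made with earlier results of these data known. They were the transcriptional activators Arntl (also called Bmal1), Clock and Npas2, the repressors Per1, Per2, Per3 and Cry1, the nuclear receptors Nr1d1 and Nr1d2 (REV-ERB alpha and beta), and the output transcription factor Dbp. All 10 symbols were found among the 23367 entries of the gene table, and all 10 were among the 16882 genes with enough counts to be tested. The question was how the level of each clock gene stood at each stage of muscle development from late fetal life to the adult, and how far mice of a single stage differed.

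RNA-seq was done on polyadenylated RNA from wild type FVB mice at embryonic day 18.5 (E18.5), postnatal day 2 (PN2), PN14, PN28 and 22 weeks (adult), without any treatment. There were 6 libraries: PN14 had 2, from separate mice, and each other stage had 1. The E18.5 library pooled males and females and the other 5 libraries were from males. The E18.5 and PN2 libraries were each made from several mice, so they average over animals. The hour at which the tissue was taken is not given in the sources used here, and clock genes change with the hour. Each library was run on a lane of its own, so lane, stage and hour of sampling cannot be told apart. Between 125402932 and 157868359 counts per library fell on genes, and 3 counts corresponded to 0.019 to 0.0239 CPM, counts scaled to a common library size.

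In the clock of mammalian cells, a dimer of ARNTL with CLOCK, or with its relative NPAS2, binds E-box sequences and activates the Per, Cry, Nr1d and Dbp genes. PER and CRY proteins then return to the nucleus and inhibit that dimer, while the NR1D receptors repress Arntl, Clock and Npas2 through another element, for which they compete with the activating ROR receptors. The result is a daily cycle in most tissues, skeletal muscle included, in which Arntl and Npas2 peak at about the opposite time of day to Nr1d1, Dbp and Per3, and DBP carries the rhythm on to genes that hold D-box sequences.

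The elements named above were looked for in the 250 bases before the transcription start sites of the members, in the RefSeq promoter windows of GRCm38.p6. There were 13 such windows for 9 members; Per2 is only named here. Each of the 13 window sequences was found once, letter for letter, near its gene on mm9, the build used for the read alignment, and positions below are those of mm9. The 4 windows with a match are shown because they hold the sequences through which the clock proteins are known to act. They are written 5′ to 3′ on the strand of the gene, with the matches in capitals.

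Per1, chr11:68912201-68912450, + strand: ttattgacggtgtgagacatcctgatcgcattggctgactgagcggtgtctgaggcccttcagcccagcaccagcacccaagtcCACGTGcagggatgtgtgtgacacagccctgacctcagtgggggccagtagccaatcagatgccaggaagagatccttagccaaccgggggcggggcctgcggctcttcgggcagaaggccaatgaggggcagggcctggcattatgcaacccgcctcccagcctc
Cry1, chr10:84647800-84648049, - strand: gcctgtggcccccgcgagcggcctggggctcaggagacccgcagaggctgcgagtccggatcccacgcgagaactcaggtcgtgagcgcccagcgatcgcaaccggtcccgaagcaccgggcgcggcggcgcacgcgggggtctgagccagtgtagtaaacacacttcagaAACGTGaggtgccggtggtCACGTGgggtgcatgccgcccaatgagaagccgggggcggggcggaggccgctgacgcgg
Nr1d1, chr11:98636692-98636941, - strand: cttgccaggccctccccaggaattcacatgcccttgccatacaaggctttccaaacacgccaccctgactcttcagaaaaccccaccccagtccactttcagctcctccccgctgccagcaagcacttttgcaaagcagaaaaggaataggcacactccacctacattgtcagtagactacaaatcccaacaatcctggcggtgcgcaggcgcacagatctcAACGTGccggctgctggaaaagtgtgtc
Per3, chr4:150418775-150419024, - strand: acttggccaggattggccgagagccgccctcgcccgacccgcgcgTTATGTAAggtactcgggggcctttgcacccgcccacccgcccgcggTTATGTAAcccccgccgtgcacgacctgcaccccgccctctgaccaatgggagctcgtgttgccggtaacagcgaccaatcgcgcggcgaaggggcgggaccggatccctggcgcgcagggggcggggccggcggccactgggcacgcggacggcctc

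The Per1 and Cry1 windows each held the E-box CACGTG, 166 and 60 bases before the start. On either strand, this palindrome was present in 6.02% of all 32851 promoter windows. The variant CACGTT, read as AACGTG on the other strand, lay 79 bases before the start of Cry1 and 28 bases before that of Nr1d1, and was present in 3.85% of windows. The Per3 window had 2 copies of the D-box TTATGTAA, 205 and 158 bases before its start, an 8-base word held by 0.819% of windows in this form or as TTACATAA. The D-box TTACGTAA, the receptor element TAGGTCA and the cAMP response element TGACGTCA were searched on both strands as well. They were in 0.113%, 2.23% and 1.55% of all windows and in none of the 13. A match is a description of the letters and no evidence of binding, and elements of these genes outside the 250 bases were not searched. The Per1 window lay inside the annotated Per1 gene, ahead of the first exon of a shorter transcript model, and the other 3 windows lay outside annotated genes (GENCODE M1).

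Levels are given first as FPKM, read fragments scaled to transcript length and to the size of the library, which allows genes to be compared within a library. Differences between stages are given as log2 fold changes of counts scaled by TMM (trimmed mean of M values), since a few muscle genes took a growing share of the counts: the 20 most abundant genes held 16.03% of counts at E18.5 and 36.9% in adult. With library size alone the median of all genes tested moved by -0.66 from PN2 to PN14 and by -1.08 from E18.5 to adult on the log2 scale, and with TMM by -0.01 and -0.05. A gene was called changed where edgeR's quasi-likelihood test gave a Benjamini-Hochberg adjusted p under 0.05, over all 16882 genes, and the log2 fold change was 1 or more in either direction. The PN14 pair supplied the spread for every stage, with 1 residual degree of freedom, so each test assumes that the other stages varied as PN14 did.

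Over the whole period, Dbp, Nr1d1, Nr1d2 and Per3 rose and Npas2 fell, while Arntl, Clock, Per1, Per2 and Cry1 were not called. From E18.5 to adult, 5 of the 10 genes were called, 4 higher and 1 lower in adult, beside 44.9% of all genes tested. From PN2 to PN14, 4 of the 10 were called, all higher at PN14, beside 23% of all genes. With library size alone that step had 1 higher (Dbp, 1.72) and 1 lower (Npas2, -1.49), beside 34.5% of all genes called. Per3 (0.86), Nr1d1 (0.76) and Nr1d2 (0.97) kept their direction and lost the call. The count was 0 of the 10 for each remaining step: E18.5 to PN2, where 0.0296% of all genes were called, PN14 to PN28 (0.0178%) and PN28 to adult (0.521%). In those 3 steps edgeR gave an unadjusted p under 0.05 to 3, 3 and 1 of the 10, beside 1121, 1420 and 3091 of all 16882 genes. The share of members called is thus close to that of all genes over the whole period. The median log2 fold change of the 10 was 1.08 from PN2 to PN14 and 1.04 from E18.5 to adult, beside -0.01 and -0.05 for all genes tested.

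**Figure D1:**
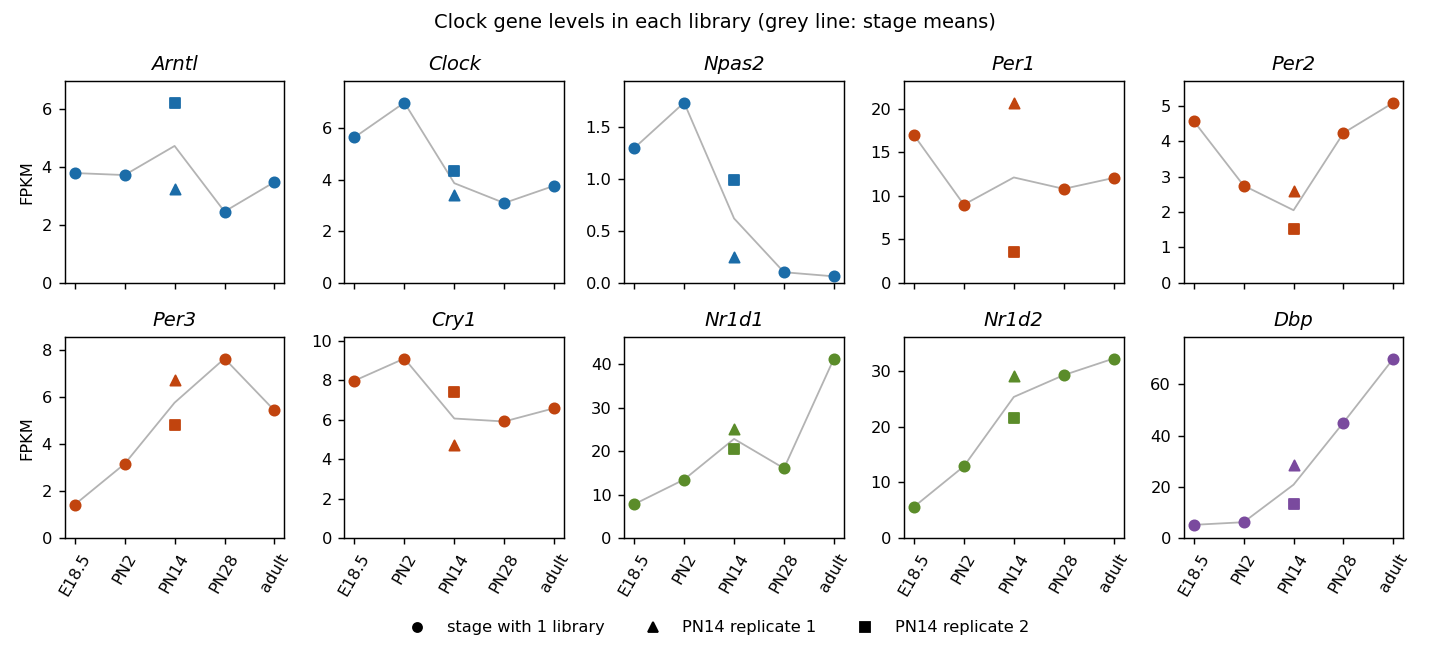
Level of each of the 10 genes in FPKM (vertical axes, each from 0) by stage (horizontal axes), with 1 point per library, triangles and squares for PN14 replicates 1 and 2, and grey lines through the stage means. Dbp climbed from 5.30 to 70.0 FPKM and Npas2 declined from 1.30 to 0.06, while the whole range of Per1 lay between the PN14 libraries.

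Arntl (chr7:120350979-120457636, + strand), the activator without which the clock stops, stood at 3.78 FPKM in the E18.5 library and 3.71 in that of PN2, at 3.22 in PN14 replicate 1 and 6.21 in PN14 replicate 2, and at 2.45 and 3.47 in PN28 and adult. The highest of the 6 values was PN14 replicate 2, and the other PN14 library was below E18.5 and PN2 in FPKM but above them in TMM CPM. The order of stages by TMM CPM was PN14, adult, PN28, E18.5 and PN2, and each of the 4 gaps between neighbours was smaller than the gap within PN14. Its log2 fold change was 0.97 from PN2 to PN14 (SE 0.324, adjusted p = 0.0674) and 0.91 from E18.5 to adult (SE 0.362, adjusted p = 0.0782), both in edgeR.

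Clock (chr5:76639992-76733817, - strand), the partner of ARNTL, was at 5.64, 6.99, 3.39, 4.33, 3.09 and 3.76 FPKM at E18.5, PN2, PN14 replicate 1, PN14 replicate 2, PN28 and adult. By TMM CPM it was the steadiest of the 10 between the PN14 libraries. In FPKM Nr1d1 was steadier, with a log2 ratio of replicate 2 to replicate 1 of -0.28 against 0.35 for Clock. The direction of Clock over development depended on the scaling. In FPKM both PN14 libraries, PN28 and adult lay below E18.5 and PN2, whereas by TMM CPM adult was highest and E18.5 lowest. The TMM log2 fold change from E18.5 to adult was 0.44 (SE 0.195, edgeR adjusted p = 0.102) and that with library size alone was -0.58 (adjusted p = 0.201).

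Npas2 (chr1:39250576-39420079, + strand), the relative of Clock that can take its place, was the only member that fell. Its level was 1.30 FPKM in the E18.5 library and 1.74 in that of PN2, then 0.25 in PN14 replicate 1 against 0.99 in replicate 2, and 0.10 and 0.06 at PN28 and in adult, on 38 to 1130 counts. In FPKM the fetal and newborn libraries were highest and the PN28 and adult libraries lowest, with both PN14 libraries between them. In TMM CPM, PN14 replicate 2 (4.06) lay above E18.5 (3.69) and below PN2 (4.97). Between E18.5 and adult it fell by 3.30 on the log2 scale (SE 0.872, edgeR adjusted p = 0.0218). The step from PN14 to PN28 was the only one larger than the PN14 gap, 2.39 against 1.72 on the log2 scale of TMM CPM, and it did not pass edgeR's test (adjusted p = 0.549). That step was -3.00 without PN14 replicate 1 and -1.30 without replicate 2, and it was called with library size alone (-2.69, edgeR adjusted p = 0.00262). Within a library, free of scaling between libraries, the ratio of Npas2 to Clock FPKM was 0.23 at E18.5, 0.249 at PN2, 0.0737 and 0.229 at PN14, 0.0324 at PN28 and 0.016 in adult.

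Among the repressors, Per1 (chr11:68908719-68923462, + strand) is also induced quickly by hormonal signals and cAMP. Its level was 17.0 FPKM at E18.5 and 8.97 at PN2, 20.7 in PN14 replicate 1 but 3.49 in replicate 2, and 10.8 and 12.1 at PN28 and in adult. The highest and the lowest of all 6 values were the PN14 libraries, so no pair of stages differed by as much as the mice of PN14. Its PN2 to PN14 log2 fold change of 1.19 had an SE of 1.01 (edgeR adjusted p = 0.401). It became -0.83 without PN14 replicate 1. Between E18.5 and adult the value was 0.53 (SE 1.11, edgeR adjusted p = 0.705) with TMM and -0.49 with library size alone.

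Per2 (chr1:93312561-93355907, - strand), a core inhibitor of the ARNTL dimer, was at 4.58, 2.75, 2.59, 1.51, 4.24 and 5.10 FPKM in the same order of libraries. In FPKM both PN14 libraries and PN2 were low and E18.5, PN28 and adult were high. In TMM CPM, E18.5 (18.3) was near PN14 replicate 1 (17.9) and below PN28 (31.3) and adult (41.5). On that scale all 4 gaps between neighbouring stages were smaller than the gap within PN14. The log2 fold change was 1.24 from PN14 to PN28 (SE 0.391, unadjusted p = 0.0199, adjusted p = 0.548 in edgeR). From E18.5 to adult it was 1.18 (SE 0.471, edgeR adjusted p = 0.0776) and 0.16 with library size alone. That step was called by DESeq2 (1.16, adjusted p = 0.0314), by edgeR's exact test and with no filter on low counts.

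Per3 (chr4:150377761-150418774, - strand), the period gene least needed to keep the rhythm, rose. It had 1.43 FPKM at E18.5, 3.16 at PN2, 6.69 and 4.81 at PN14, 7.62 at PN28 and 5.42 in adult. Every library from PN14 on was above PN2, and PN2 was above E18.5. The log2 fold change from PN2 to PN14 was 1.55 (SE 0.334, edgeR adjusted p = 0.0212), and that from E18.5 to adult was 2.95 (SE 0.386, adjusted p = 0.00243).

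Cry1 (chr10:84594447-84647799, - strand), the inhibitor that closes the loop, varied least of the 10 over the 6 libraries, by 1.93-fold in FPKM. It measured 7.97 at E18.5, 9.09 at PN2, 4.71 and 7.41 at PN14, 5.91 at PN28 and 6.58 FPKM in adult. No gap between neighbouring stages by TMM CPM exceeded the PN14 gap. Its E18.5 to adult log2 fold change was 0.75 (SE 0.254, edgeR adjusted p = 0.0482), past the p but under the fold required, and it was -0.28 with library size alone.

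Nr1d1 (chr11:98629246-98636647, - strand) is both a target and a repressor of the activators and in muscle is known to support mitochondrial function. It had 7.86 FPKM at E18.5, 13.5 at PN2, 25.1 and 20.6 at PN14, 16.1 at PN28 and 41.3 in adult. Adult was highest by a wide margin, E18.5 and PN2 were lowest, and PN28 was below both PN14 libraries in FPKM. The gene rose by a log2 fold change of 1.43 from PN2 to PN14 (SE 0.279, edgeR adjusted p = 0.0163) and 3.42 from E18.5 to adult (SE 0.331, adjusted p = 0.00138). From PN28 to adult the value was 1.50 (SE 0.307, edgeR adjusted p = 0.09). That step passed with library size alone, at 1.36 (edgeR adjusted p = 0.011), and in DESeq2, at 1.49 (adjusted p = 0.00204).

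Nr1d1 lies tail to tail with Thra, a thyroid hormone receptor gene on the opposite strand, and 263 of its 3124 annotated exon bases (8.4%) are also Thra exon. Whether the counting used strand is not given in the sources used here, so reads from the shared bases may have gone to either gene. Thra was listed at 66.1 and 66.7 FPKM at E18.5 and PN2 and at 22.5 to 36.4 FPKM in the later libraries, lowest at PN28.

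Nr1d2 (chr14:19036568-19071641, - strand), the close relative with overlapping function, rose along with it. Its values were 5.65 FPKM at E18.5, 12.9 at PN2, 29.0 and 21.5 at PN14, 29.2 at PN28 and 32.1 in adult. The libraries from PN14 on lay above PN2, and the neighbouring stages from PN14 to adult differed by less than the PN14 pair. The log2 fold change was 1.65 from PN2 to PN14 (SE 0.343, edgeR adjusted p = 0.0191) and 3.53 from E18.5 to adult (SE 0.403, adjusted p = 0.00187). Within a library the ratio of Nr1d1 to Nr1d2 FPKM was 1.39 at E18.5, 1.05 at PN2, 0.865 and 0.958 at PN14, 0.552 at PN28 and 1.29 in adult.

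Dbp (chr7:52960458-52965525, + strand), the output factor of the proline and acidic amino acid-rich (PAR) bZIP family, had the largest TMM log2 fold change of the 10 from E18.5 to adult, though with library size alone that of Npas2 was larger (-4.33 against 3.72). It stood at 5.30 and 6.33 FPKM at E18.5 and PN2, at 28.6 in PN14 replicate 1 and 13.3 in replicate 2, and at 45.1 and 70.0 in PN28 and adult. The order of the stages followed age, and both PN14 libraries were above PN2 and below PN28. The log2 fold change was 2.43 from PN2 to PN14 (SE 0.581, edgeR adjusted p = 0.0277) and 4.75 from E18.5 to adult (SE 0.69, adjusted p = 0.00314). Only the gap between PN2 and PN14, 2.44 by mean TMM CPM, was larger than the gap of 1.37 within PN14. DESeq2 did not call the PN2 to PN14 step (adjusted p = 0.0917), and the value was 1.59 without PN14 replicate 1 and 2.96 without replicate 2. In the annotation, 491 of the 2945 exon bases of Dbp (16.7%) are also exon of Sphk2 on the opposite strand, which was listed at 4.49 to 8.63 FPKM, highest at E18.5 and lowest in adult.

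**Figure D2:**
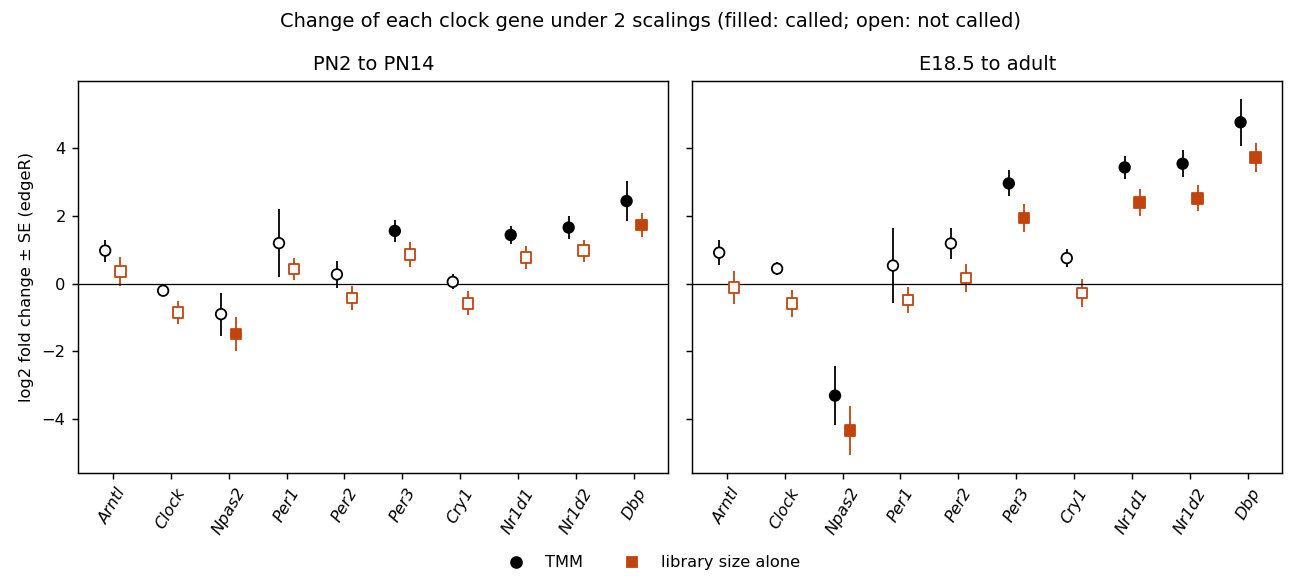
Log2 fold change of each gene from PN2 to PN14 (left) and E18.5 to adult (right), as edgeR estimates with their SE as bars, for TMM (circles) and library size alone (squares), filled where the gene was called. The 4 risers from E18.5 to adult and Npas2 kept their direction under both scalings, while Arntl, Clock, Per1 and Cry1 were above 0 with TMM and below 0 with library size alone.

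By a plain 2-fold difference of mean TMM CPM, with no test, 5 of the 10 genes differed from PN2 to PN14 beside 26.9% of all genes that reached 1 CPM. These were the 4 called genes and Per1 (1.18). Between E18.5 and adult there were 6, beside 49.6%: the 5 called genes and Per2 (1.18). Per3 (1.13) and Nr1d2 (1.19) differed from E18.5 to PN2, beside 3.44% of genes. From PN14 to PN28 there were 3, beside 3.35%: Npas2 (-2.18), Per2 (1.23) and Dbp (1.28). That count was 5 without PN14 replicate 1 and 1 without replicate 2, and the share of all genes was not taken in those settings. From PN28 to adult only Nr1d1 (1.49) passed, of 9 members that reached 1 CPM, beside 10.2% of genes.

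Between the PN14 mice, 4 of the 10 members differed by at least 2-fold in TMM CPM, beside 2.74% of all genes that reached 1 CPM. The count was 3 with library size alone and 3 with a pseudocount of 1 CPM. The share of all genes was not taken in those settings. The median size of the difference was 0.71 on the log2 scale for the 10 members and 0.20 for all genes tested, and Clock lay below the latter, at 0.09. With a single pair of mice this is a description without a test.

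Per1 had the widest gap, 114.0 TMM CPM in replicate 1 and 16.0 in replicate 2, or 7.07-fold, and 0.0652% of genes tested differed by as much. Npas2 was 3.13-fold higher in replicate 2, at 4.06 against 1.23 TMM CPM, a gap matched by 0.385% of genes. Dbp was 2.57-fold higher in replicate 1, 55.3 against 21.4 TMM CPM, as far apart as 0.894% of genes. Per2 was higher in replicate 1 as well, by 2.05-fold, with 2.5% of genes as far apart. In FPKM the ratio of replicate 2 to replicate 1 for Per2 was 0.583, short of 2-fold.

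The direction of the gap was not the same for all members. The activators Arntl (0.68), Clock (0.09) and Npas2 (1.64), and Cry1 (0.39), were higher in replicate 2 on the log2 scale. Per1 (-2.82), Per2 (-1.03), Per3 (-0.73), Nr1d1 (-0.54), Nr1d2 (-0.69) and Dbp (-1.36) were higher in replicate 1. FPKM gave the same 4 and 6. Of all genes tested, 8656 were higher in replicate 2 and 8117 lower in TMM CPM.

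Of the clock genes outside the 10, 20 of 28 were lower in replicate 2 in TMM CPM, beside 8117 of all 16882 genes tested. Tef, a PAR bZIP factor like Dbp, had the largest gap (-0.90), followed by the ubiquitin protease gene Usp2 (-0.84), the activating receptor Rora (-0.77) and the PAR bZIP factor Hlf (-0.62). None of the 28 differed by 2-fold.

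**Figure D3:**
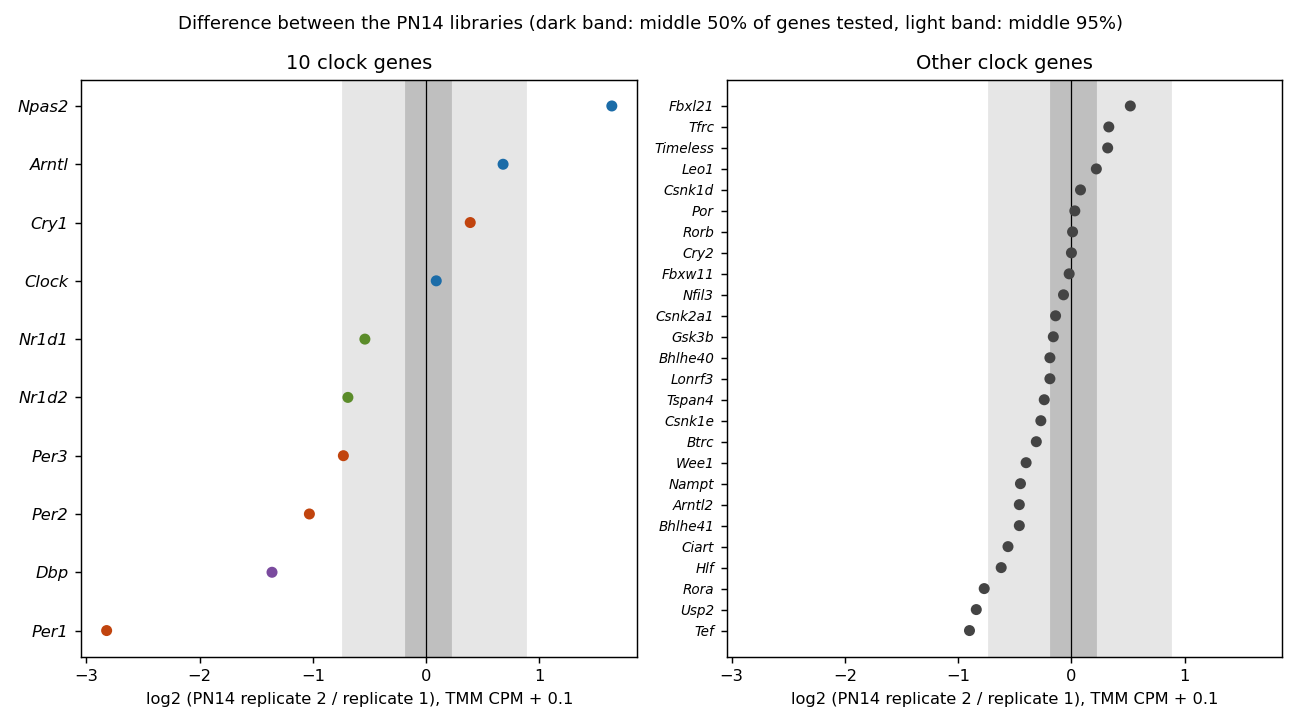
Difference between the PN14 libraries as log2 of replicate 2 over replicate 1 in TMM CPM plus 0.1 (horizontal axes), for the 10 genes (left, coloured by role) and other clock genes (right), over bands holding the middle 50% and 95% of all genes tested. Npas2 (1.64) lay above the wider band of -0.73 to 0.88, and Per1 (-2.82), Dbp (-1.36) and Per2 (-1.03) lay below it.

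Other genes that respond quickly to signals were measured in the same pair. All 10 immediate early genes were higher in replicate 1, in TMM CPM and in FPKM, with a median log2 difference of -0.72 in TMM CPM. The largest gaps were those of Nr4a1, at 69.4 against 19.1 FPKM, Fos, at 10.3 against 5.80, and Jun, at 32.6 against 19.8. Of 8 genes that respond to glucocorticoids, 5 were higher in replicate 1 in TMM CPM, with a median of -0.05, and 3 in FPKM, where Fkbp5 and Zbtb16 turned. Pdk4, at 132.0 FPKM in replicate 1 and 360.9 in replicate 2, differed most, in the opposite direction to Sgk1 and Tsc22d3, at 107.1 against 69.0 and 85.7 against 55.5 FPKM. The part of these differences in those of the clock genes was not tested.

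A ratio of 2 genes inside a library does not depend on scaling between libraries, and the ratio of an output gene to Arntl sets genes of opposite phase against each other. Dbp over Arntl in FPKM was 1.40 and 1.71 at E18.5 and PN2, 8.88 in PN14 replicate 1 but 2.14 in replicate 2, and 18.4 and 20.2 in PN28 and adult. The E18.5, PN2 and PN14 replicate 2 libraries formed the low end, PN28 and adult the high end, and PN14 replicate 1 fell between. Nr1d1 over Arntl was 2.08 and 3.65 at E18.5 and PN2, 7.80 and 3.32 at PN14, 6.58 at PN28 and 11.9 in adult, so PN14 replicate 2 was below PN2. Nr1d2 over Arntl was 1.49, 3.47, 9.01, 3.47, 11.9 and 9.26 in the same order.

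The ratios of the period genes to Arntl were taken in the same way. Per1 over Arntl was 4.49 at E18.5, 2.42 at PN2, 6.43 and 0.562 at PN14, 4.4 at PN28 and 3.47 in adult. Per2 over Arntl was 1.21, 0.741, 0.804, 0.243, 1.73 and 1.47 in that order, and Per3 over Arntl was 0.378, 0.852, 2.08, 0.775, 3.11 and 1.56. For all 6 numerators the ratio was higher in PN14 replicate 1 than in replicate 2, and for Per1 and Per2 replicate 2 was the lowest of the 6 libraries. This was not particular to them. Clock (1.05 and 0.697) and Cry1 (1.46 and 1.19) over Arntl were higher in replicate 1 too, and only Npas2 (0.0776 and 0.159) was lower. The shared denominator, Arntl, was at 3.22 and 6.21 FPKM in the PN14 libraries.

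**Figure D4:**
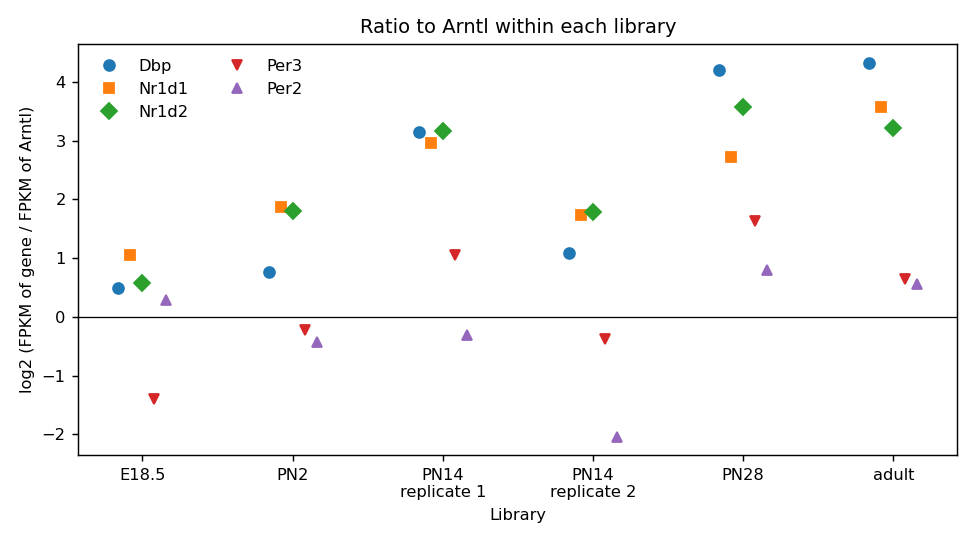
Log2 of the FPKM of Dbp, Nr1d1, Nr1d2, Per3 or Per2 over that of Arntl in each of the 6 libraries, with 1 point per gene and library. The ratio for Dbp ran from 0.49 at E18.5 to 4.33 in adult, and it was 3.15 and 1.09 in PN14 replicates 1 and 2.

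Other genes of the clock were examined in a list of 28, all of which were tested. From PN2 to PN14, 6 were called, or about the 23% called among all genes, and all rose: the transcriptional repressors Bhlhe41 (log2 fold change 3.23) and Ciart (1.58, listed as Gm129), the Arntl paralogue Arntl2 (2.80, on 6 to 32 counts a library), the NAD biosynthesis enzyme Nampt (1.76), the transferrin receptor Tfrc (2.69) and Usp2 (1.39). With library size alone, 4 rose and 3 fell, beside 34.5% of all genes called, 854 higher and 4971 lower. The median of the 28 was 0.43 with TMM.

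From E18.5 to adult, 17 of the 28 were called beside 44.9% of all genes, 15 higher and 2 lower in adult. Large differences were those of Bhlhe41 (5.02), of Rora (3.71), whose product acts on the same elements as NR1D1, of Ciart (3.26) and of Tef (3.15). Timeless (-2.23) and the cell cycle kinase Wee1 (-1.32) were lower in adult. Under scaling by library size the split was 7 higher and 5 lower, beside 53.6% of all genes called, 1347 higher and 7700 lower. In the step from PN28 to adult, 1 of the 28 was called, beside 0.521% of all genes. In that step 14 of the 28 had an unadjusted p under 0.05 in edgeR, beside 3091 of all 16882 genes. The count was 0 of 28 between E18.5 and PN2 and between PN14 and PN28, with 5 at an unadjusted p under 0.05 in edgeR in each step. Of all 16882 genes, 1121 and 1420 had such a p in these steps.

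By role, and again beside 44.9% of all genes, the transcriptional regulators of the list, counted with Timeless, had 8 of 9 called from E18.5 to adult. Of these, 7 were higher and 1 was lower. With library size alone, 4 of the 9 were called higher and 2 lower, beside 53.6% of all genes. The bZIP factors Tef, Hlf and Nfil3 had 2 of 3 called (Tef and Hlf, both higher). Nfil3 was not called with TMM (-0.08) and was called lower with library size alone (-1.11). The kinases and ubiquitin ligases that act on PER and CRY had 3 of 8, all higher with TMM, Csnk2a1 (1.15) and Gsk3b (1.11) among them. With library size alone they had 0 of 8, beside 53.6% of all genes. The output genes had 4 of 8.

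As a description over 6 libraries that also share muscle maturation, the genes most like Dbp were sought among 2744 that reached 5 CPM and spanned at least 2 on the log2 scale. The closest by Pearson's correlation of log2 TMM CPM were Fech (0.9995), the last enzyme of haem synthesis, Tango2 (0.9985), Adhfe1 (0.9979), C2cd2 (0.9977), Wdtc1 (0.9974), Tef (0.9972), Man2a2 (0.9971) and 9530091C08Rik (0.9971). These libraries include the PN14 pair, so a likeness to Dbp in that pair is part of the choice. The most opposite were Gli1 (-0.9986), the target of hedgehog signals, Sema5a (-0.9958) and Atp1b4 (-0.9951). Arntl itself ran only from 7.3 (PN2) to 17.6 (PN14 replicate 2) TMM CPM, a span under the 2 required. Genes as steady as Arntl were thus left out of its search, and its correlations cannot be set against those of Dbp. Among the 2745 genes compared with Arntl, Pthlh led (0.922). Tgtp2 (0.8836), Fam178b (0.8822), Sfrp5 (0.8735), Nfasc (0.8607), Gbp4 (0.8541) and Car2 (0.8516) were also among the 8 closest. Olfml3 (-0.9149), Acp5 (-0.9008) and Ctsk (-0.8808) were most opposite.

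Between the members, over the same 6 libraries, Per3 and Nr1d2 were most alike (0.99), then Nr1d1 and Nr1d2 (0.94) and Nr1d2 and Dbp (0.94), while Npas2 ran opposite to Dbp (-0.94). Per1 and Per2, which share the fast response to signals, correlated at 0.76.

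The muscle was a mixture of cells whose make-up changed with age, and in bulk RNA fewer cells of a type and less RNA per cell cannot be told apart. The summed FPKM of 9 muscle fibre genes ranged from 22500 at E18.5 to 103000 at PN28, so the labelled tissue had its defining genes in every library. Sums were 6090 at E18.5 and 516 in adult for 6 fibroblast genes, 84.9 and 7.43 for 5 satellite cell genes, and 8590 and 375 for 5 erythroid genes. They ranged from 62.5 to 230.0 for 5 endothelial genes, 328 to 630 for 5 adipocyte genes, 9.11 to 28.9 for 5 macrophage genes and 51.7 to 878 for 5 Schwann cell genes. The adipocyte sum hid a rise: 4 of those 5 genes were called higher in adult than at E18.5, and none lower. Their median log2 fold change over all 5 was 4.74, and 44.9% of all genes were called. Lep, of the adipocyte genes, was at 3 counts or fewer in at least 1 library. Between the PN14 libraries the Schwann cell sum differed most, at 223 in replicate 1 and 878 in replicate 2. The part of these shifts in the clock gene differences was not tested.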

How the data were processed

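RNA-seq libraries of polyadenylated RNA from gastrocnemius were made with Illumina TruSeq protocols and sequenced as paired ends by the authors. Reads were aligned to mm9 with TopHat 2.0.5, and RSEM assigned fragments to RefSeq gene models. The deposited table gives, for each of 23367 entries and 6 libraries, the expected count from RSEM and the FPKM, both made by the authors. Clock genes were taken by symbol, and Ciart was found under its older name Gm129. The members and the gene lists were chosen with earlier results of these data known.

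Expected counts were rounded to whole numbers and fitted in edgeR 4.0.16 (R 4.3.3) with TMM scaling (factors from 0.7136 in adult to 1.452 at E18.5), edgeR's filter on low counts by stage, and the 5 stages as groups over all 6 libraries. The quasi-likelihood test was used with Benjamini-Hochberg adjustment over 16882 genes. The common biological coefficient of variation was 0.188. A call needed an adjusted p under 0.05 together with a log2 fold change of 1 or more in either direction. The SE is the log2 fold change divided by the square root of the F statistic. For 2-fold counts, 0.1 CPM was added and 1 CPM was required in the higher stage or library. Fold changes of low genes are understated on that scale. No p-value covers a difference inside the PN14 pair. The PN14 mice were separate animals, and p-values elsewhere rest on that 1 pair. The scripts were tested on simulated data.

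Alternatives were library size alone, the size factors of DESeq2, no filter on low counts, a mean of at least 1 CPM, the exact test of edgeR, the Wald test of DESeq2 1.42.0, a pseudocount of 1 CPM, no floor, 0.1 FPKM added to ratios, and each PN14 library left out. Named genes were all members, the other clock genes called (where more than 5 were called, from the 5 largest, and those that fell), the 8 genes most like Dbp and Arntl and the 3 most opposite, and the 3 genes of each fast-responding list with the largest gap between the PN14 libraries. Wee1, Timeless, Nfil3, the called kinases and ligases and the other clock genes with the largest PN14 gaps were named after their values were seen. Promoter windows were searched over the 250 bases before the start only. Gene positions and exon overlaps came from GENCODE M1 on mm9. A few genes that these rules would name are not reported here.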

Additional observations from a re-analysis of the deposited data

How the results depend on the processing

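Only PN14 had more than 1 library, so all tests rest on the spread of that pair. Every member had 38 or more counts in every library, with Npas2 the lowest, and the effect of depth was not tested. The hour of sampling was not given, so no alternative could take it into account. No paired analysis was possible because only PN14 carried replicate numbers. From E18.5 to adult, 5 or 6 members were called under each alternative to the TMM scaling, the filter and the test. Beside them, 38.5% (DESeq2) to 53.6% (library size alone) of all genes were called. The sixth member was Per2 with no filter, by DESeq2 and by the exact test. With library size alone, 2 members were called from PN2 to PN14 (Dbp rose, Npas2 fell), 2 between PN14 and PN28, and 1 in the last step to adult. In these steps 34.5%, 1.55% and 5.14% of all genes were called. From PN28 to adult 1 member was also called with no filter, by DESeq2 and by the exact test, beside 4.26%, 4.84% and 6.53% of all genes. Of the 28 other clock genes, 1 was called from E18.5 to PN2 with library size alone, with no filter, by DESeq2 and by the exact test. Among all genes the shares were 1.43%, 0.495%, 0.971% and 1.93% in that order. From PN14 to PN28, 1 of the 28 was called with library size alone, by DESeq2 and by the exact test. The shares of all genes were 1.55%, 0.8% and 1.32%. From PN28 to adult the count was 3 with library size alone, 2 with no filter, 0 among the 25 that had a mean of at least 1 CPM, and 4 by DESeq2 and by the exact test. All genes had 5.14%, 4.26%, 0.0991%, 4.84% and 6.53% called in those settings. By 2-fold difference, 2 members passed from PN2 to PN14 with library size alone, and with 1 PN14 library left out the counts ran from 5 to 6 for PN2 to PN14 and from 1 to 5 for PN14 to PN28. The shares of all genes passing 2-fold were not taken in these settings, so these counts cannot be read as particular to the members. The cause of these shifts was not tested.

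Log2 fold changes changed sign as follows. With 1 PN14 library left out, the values from PN2 to PN14 were -0.83 without replicate 1 and 1.99 without replicate 2 for Per1, -0.34 without replicate 1 and 0.70 without replicate 2 for Per2, and 0.24 and -0.16 for Cry1. In the PN14 to PN28 step they were 1.99 without replicate 1 and -0.86 without replicate 2 for Per1, and 0.0017 and -0.56 for Nr1d1. With library size alone they were -0.42 for Per2 and -0.58 for Cry1 from PN2 to PN14, -0.037 for Cry1 from PN14 to PN28, and -0.12 for Arntl, -0.58 for Clock, -0.49 for Per1 and -0.28 for Cry1 from E18.5 to adult. With the size factors of DESeq2 in edgeR, all 50 values kept their direction and call. DESeq2 itself kept 47, lost Dbp from PN2 to PN14, and added Per2 from E18.5 to adult (1.16, adjusted p = 0.0314) and Nr1d1 from PN28 to adult.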
